A study of Mus musculus with 20 samples.

Results

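Genes of the p53 response and of cell-cycle arrest were examined in microglia sorted from the injured mouse spinal cord. The 10 genes were taken as a list of symbols and looked up in the table of normalized gene levels, where 10 of 10 were found among 16810 genes. They are the transcription factor gene Trp53, its targets Mdm2, Cdkn1a, Ccng1 and Bax, the cyclin-dependent kinase (CDK) inhibitor genes Cdkn1b and Cdkn2c, and the stress-inducible genes Gadd45a, Gadd45b and Plk3. All 20 libraries came from CX3CR1+/eGFP mice, adult heterozygous males on a C57BL/6 background in which 1 copy of Cx3cr1 carries eGFP. Cells with high eGFP were sorted from the thoracic cord around the lesion, or from the same level of uninjured cord. The groups were non-injured (NI, n = 3), lateral hemisection (HS) at 72 h (n = 3), 1 week (n = 2) and 2 weeks (n = 3), and full transection (FT) at 72 h (n = 3), 1 week (n = 3) and 2 weeks (n = 3). The comparisons ask how microglia respond over time to a moderate and to a severe lesion. The Cx3cr1 promoter is also active in blood monocytes, and the NI mice carry the eGFP allele too. The authors list more mice than libraries and call the replicates biological, but how many mice went into a library is not given. The p-values thus measure the spread between libraries, which may be pools of mice, and not the spread between mice. Part of that spread may be technical.

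p53 is a transcription factor held at a low level by the ubiquitin ligase Mdm2, which is itself made from a p53 target gene. Since p53 is controlled largely through the stability of the protein, its activity is usually read from its targets. Some of these stop the cell cycle, such as Cdkn1a, which encodes p21. Others lead to apoptosis, such as Bax, and Mdm2 closes a negative feedback loop. CDK inhibitors of the Cip/Kip family (p21, p27 and p57, encoded by Cdkn1a, Cdkn1b and Cdkn1c) bind complexes of cyclins and kinases, while those of the INK4 family, including p18 and p19 (Cdkn2c and Cdkn2d), bind Cdk4 and Cdk6 and so keep the retinoblastoma protein active. Microglia divide little in the healthy cord and proliferate after injury. Inhibitors of the cycle and its drivers are measured here in the same libraries of many sorted cells, and not cell by cell. Several of the 10 genes, above all Gadd45a, Gadd45b and Plk3, are also induced within minutes to hours by stress signals that do not pass through p53.

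The list was drawn up partly from known p53 targets, so p53 motifs near its genes are no independent result, and they are given as a description. The 250 bases before each RefSeq start site (12 starts for the 10 genes, GRCm38) were searched on both strands for the p53 half-site, the 10-base motif that p53 binds in pairs. A match lay upstream of 6 of 10 members, Trp53, Cdkn1a, Mdm2, Bax, Ccng1 and Gadd45a, while 7.12% of 32817 promoters of the mouse genome held one in a window of the same length. Of 5 other motifs, the CCAAT box lay upstream of 6 of 10 members and of 33.8% of all promoters. TTTGAA, a letter string of the cell-cycle homology region, lay upstream of 1 of 10 members, Bax, and of 16.0% of promoters, and there it overlaps the p53 half-site by 2 bases. An E2F site, an AP-1 site (TGANTCA) and a cAMP response element (TGACGTCA) were found in 0 of 10 members, and in 1.86%, 6.75% and 1.55% of promoters. The stretches around the half-sites are shown for the targets with different responses below, Ccng1 and Bax, Cdkn1a, and Mdm2, each 5′ to 3′ on the strand of its gene with the half-site in capitals. They lie at chr11:40755422-40755511 (minus strand), chr7:45467050-45467139 (minus strand), chr17:29090866-29090975 (plus strand) and chr10:117710895-117710984 (minus strand).
Ccng1: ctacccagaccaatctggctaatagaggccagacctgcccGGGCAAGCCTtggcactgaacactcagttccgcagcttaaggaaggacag
Bax: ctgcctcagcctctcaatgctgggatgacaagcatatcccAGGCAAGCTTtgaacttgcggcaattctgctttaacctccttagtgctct
Cdkn1a: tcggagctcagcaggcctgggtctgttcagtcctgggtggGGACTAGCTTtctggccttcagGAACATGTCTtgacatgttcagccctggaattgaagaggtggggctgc
Mdm2: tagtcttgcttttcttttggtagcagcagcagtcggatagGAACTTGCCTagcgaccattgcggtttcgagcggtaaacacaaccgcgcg
Cdkn1a carries 2 matches in this window, the others 1 each. A match is a string of letters and not a measured binding site.

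Levels are given as normalized read counts (CPM, reads relative to the scaled library size). Differences are log2 fold changes of CPM + 0.5 with their SE, from limma over all 20 libraries, and a gene is said to have risen or fallen (to have been called) where it changed at least 2-fold and its p, adjusted over all 16810 genes by the method of Benjamini and Hochberg, was under 0.05. At 72 h after HS, 4 of 10 members were called, against 13.4% of all genes. Of these, 3 rose, against 9.08% of all genes, and 1 fell, against 4.31%. At 72 h after FT 3 of 10 were called (12.2% of all genes), 2 of them higher (8.14%) and 1 lower (4.09%). At 1 and 2 weeks after HS 0 of 10 were called, where 2.18% and 3.23% of all genes were. There 2 and 1 members had an unadjusted p under 0.05, as did 12.8% and 16.1% of all genes. At 1 and 2 weeks after FT 1 of 10 was called, where 4.05% and 4.88% of all genes were, and it was higher each time, as were 2.86% and 3.53% of all genes. In all, 4 members, Cdkn2c, Ccng1, Bax and Plk3, were called in at least 1 of the 6 comparisons with NI, and 6 were called in none. The median log2 fold change of the 10 members lay between -0.07 at FT 1 week and 0.29 at HS 1 week, and that of all genes between -0.11 and 0.02. The 6 comparisons use the same 3 NI libraries.

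**Figure D1:**
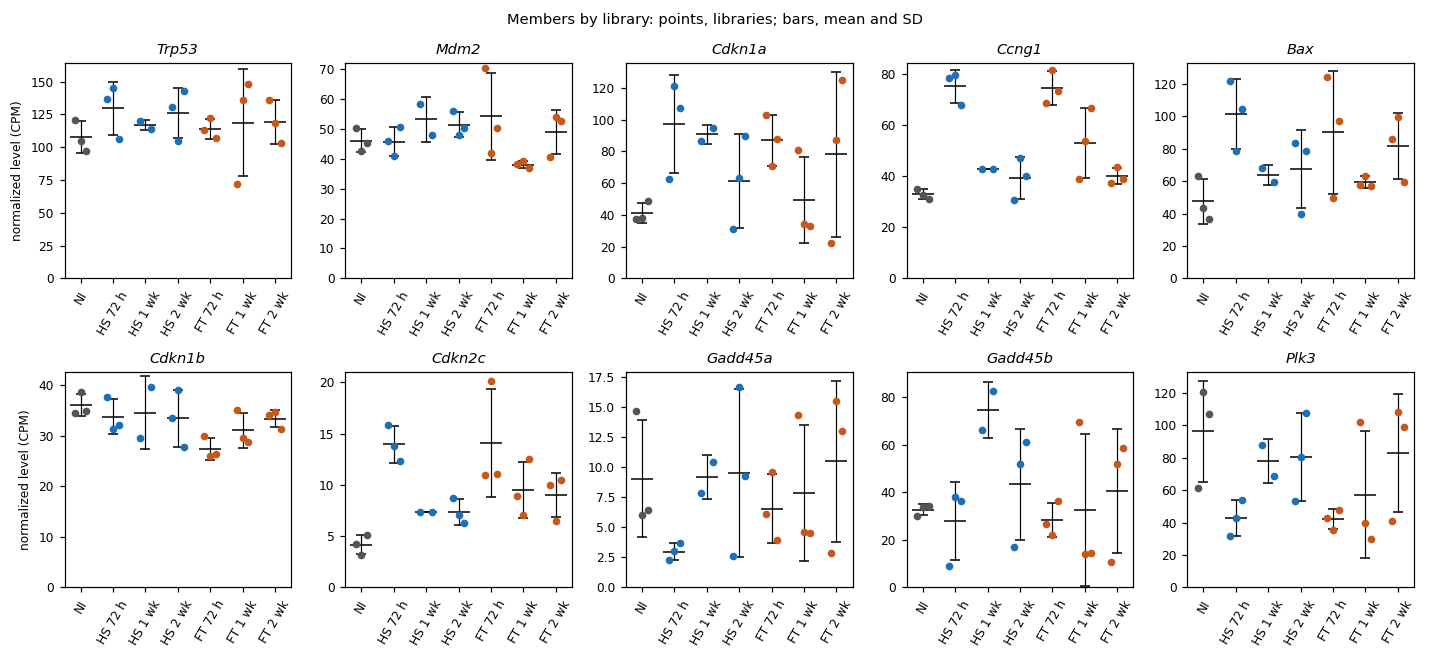
Normalized level (CPM, linear axis from 0) of the 10 genes in each library, in the 7 groups. Points are libraries and bars the mean and SD. Ccng1 and Cdkn2c stand above NI in all 72 h libraries, Plk3 stands below NI there, and in Gadd45b single libraries of 1 group lie far apart, as at FT 1 week (69.4, 14.0 and 14.4 CPM).

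The depth was between 3872918 and 34099232 reads per library, so that 1 read is worth 0.0330 to 0.292 CPM and the lowest member value, 2.28 CPM for Gadd45a, lies well above 3 reads. All 12 microglia markers were present in every library, with summed levels of 25363 to 34766 CPM in NI and 22061 to 42073 CPM after injury. Other cell types also left transcripts. The 9 monocyte markers summed to 77.6 to 79.0 CPM in NI, 135 to 204 CPM at HS 72 h and 144 to 457 CPM at FT 72 h, where the highest value belongs to replicate 1. The 9 neutrophil markers in the table summed to between 16.9 and 294 CPM and the 8 oligodendrocyte markers to between 478 and 2591 CPM, and no marker of these lists was at 0 in all libraries (Camp was at 0 in some, and Ly6g is not analysed here). The 20 proliferation genes summed to 254 to 268 CPM in NI, to 1472 to 2600 CPM at 72 h and to 284 to 422 CPM later. At 72 h 20 of 20 rose after both lesions, against 9.08% of all genes after HS and 8.14% after FT. The 17 immediate-early genes summed to between 1864 CPM (FT 2 weeks, replicate 1) and 15497 CPM. In sorted bulk cells, fewer cells that express a gene and less RNA per cell cannot be told apart.

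Trp53 itself, the gene of the p53 transcription factor, was measured at 121, 105 and 97.1 CPM in NI. At HS 72 h it was at 137, 145 and 106 CPM, and at FT 72 h at 113, 122 and 107 CPM. The ranges overlap with NI in all 6 comparisons. The log2 fold changes lay between 0.08 and 0.26, and the interval with the highest upper bound, at HS 72 h, ran from -0.19 to 0.71 (adjusted p = 0.39), so that a 2-fold rise lies outside all 6 intervals. The sign changed with the scaling: with all columns scaled to 1 total the values at 72 h were -0.25 after HS and -0.38 after FT. The widest spread was at FT 1 week, where replicate 1 was at 72.0 and the others at 136 and 148 CPM.

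Mdm2, the ubiquitin ligase that marks p53 for degradation, was at 50.1, 42.6 and 45.2 CPM in NI and at 45.8, 41.0 and 50.4 CPM at HS 72 h. These libraries overlap fully, with a log2 fold change of -0.01 ± 0.18 (SE, 95% interval -0.39 to 0.37). At FT 72 h the values were 70.3, 41.8 and 50.4 CPM, with replicate 1 above all other libraries of the series. That library also had the highest monocyte sum (457 CPM), whose part in the Mdm2 level was not tested. At FT 1 week all 3 libraries, at 38.2, 39.1 and 36.8 CPM, lay below NI, but the log2 difference of -0.27 ± 0.18 did not pass the test (adjusted p = 0.50). Of the 2 core genes of the feedback loop, Trp53 and Mdm2, neither was called in any of the 15 comparisons made.

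Cdkn1a encodes p21, the best known p53 target of the arrest arm. It was at 37.2, 37.8 and 48.5 CPM in NI, at 62.6, 122 and 107 CPM at HS 72 h and at 103, 70.7 and 87.5 CPM at FT 72 h. At HS 1 week the 2 libraries were at 86.5 and 95.03 CPM. All libraries of these 3 groups lay above all NI libraries. The log2 fold changes were 1.18 ± 0.46 (adjusted p = 0.063) at HS 72 h, 1.06 ± 0.46 (adjusted p = 0.10) at FT 72 h and 1.14 ± 0.52 (adjusted p = 0.35) at HS 1 week. None passed the test, although the estimates exceeded 2-fold and the 95% intervals lay above 0. Few of the other fits called it: 3 of 18 alternatives at HS 72 h, 1 of 17 at HS 1 week and 1 of 18 at FT 72 h. With only the libraries of the groups compared, Cdkn1a passed at HS 72 h (adjusted p = 0.0016), HS 1 week (adjusted p = 0.00067) and FT 72 h (adjusted p = 0.0016), and edgeR's quasi-likelihood test on the recovered reads called it at HS 72 h (adjusted p = 0.042).

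In the remaining groups single libraries of Cdkn1a were far apart. At HS 2 weeks they were at 31.0, 63.1 and 89.9 CPM, at FT 1 week at 81.0, 34.5 and 33.0 CPM and at FT 2 weeks at 22.4, 87.1 and 125 CPM. Each of these groups overlaps NI, with at least 1 library below the lowest NI library. Without FT 2 weeks replicate 1 the log2 fold change at FT 2 weeks went from 0.61 ± 0.46 to 1.34, and was called (adjusted p = 0.041).

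Ccng1 (chr11:40748552-40755311, minus strand), which encodes cyclin G1, a p53 target that recruits a phosphatase to Mdm2, was called at 72 h after both lesions, with little spread between libraries. In NI it was at 35.0, 32.7 and 31.1 CPM. At 72 h it was at 78.5, 79.6 and 67.9 CPM after HS and at 68.8, 81.8 and 73.3 CPM after FT. The 6 libraries at 72 h were all above the NI libraries and above every later library, and within each 72 h group the SD was under 7 CPM. Ccng1 rose 2.27-fold at HS 72 h (log2 1.18 ± 0.19, adjusted p = 7.4e-05) and 2.24-fold at FT 72 h (log2 1.17 ± 0.19, adjusted p = 9.4e-05). Without FT 72 h replicate 1, the library with the highest monocyte sum, the value was 1.22, and without HS 72 h replicate 1, that with the highest proliferation sum, it was 1.15, both still called. The adjusted p stayed low but the change fell under 2-fold, and both calls were lost, with quantile scaling (log2 0.94 after HS and 0.96 after FT) and with all columns scaled to 1 total (0.68 and 0.70).

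The level of Ccng1 was lower again at the later times. It was at 42.9 and 42.9 CPM at HS 1 week, at 30.7, 47.0 and 39.98 CPM at HS 2 weeks, at 39.1, 53.7 and 66.6 CPM at FT 1 week and at 37.5, 43.4 and 39.0 CPM at FT 2 weeks. All but the HS 2 weeks group still lay above NI without overlap, and FT 1 week had an adjusted p of 0.036 at a log2 fold change of 0.65, under 2-fold (7.03% of all genes passed there without a fold limit). Set directly against 72 h, the log2 change was -0.80 at HS 1 week (adjusted p = 0.018), -0.95 at HS 2 weeks (adjusted p = 0.0021) and -0.89 at FT 2 weeks (adjusted p = 0.0045), each under the 2-fold limit. Without a fold limit 9.54%, 10.2% and 5.78% of all genes had an adjusted p under 0.05 in these comparisons. At FT 1 week against 72 h the log2 change was -0.52 (adjusted p = 0.11).

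Bax (chr7:45461697-45466898, minus strand), the pore-forming member of the Bcl2 family that permeabilizes mitochondria in apoptosis, was at 63.3, 43.4 and 36.5 CPM in NI and at 122, 78.5 and 105 CPM at HS 72 h. The groups do not overlap, and Bax rose 2.14-fold (log2 1.10 ± 0.31, adjusted p = 0.011). At FT 72 h the libraries were at 124, 49.4 and 97.5 CPM and replicate 2 fell within the NI range. There the log2 fold change was 0.85 ± 0.31 (adjusted p = 0.047), short of 2-fold (24.2% of all genes passed without a fold limit), and without replicate 2 it was 1.23 and called (adjusted p = 0.0051). At later times Bax lay between 39.98 and 99.9 CPM and did not pass the test. The HS 72 h call was lost without NI replicate 3 (adjusted p = 0.064), without HS 72 h replicate 1 (adjusted p = 0.058), with quantile scaling (log2 0.80) and with all columns scaled to 1 total (log2 0.59, adjusted p = 0.11). The Bax exons share 12.2% of their bases with Gm45808 on the same strand, so those reads are uncertain.

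**Figure D2:**
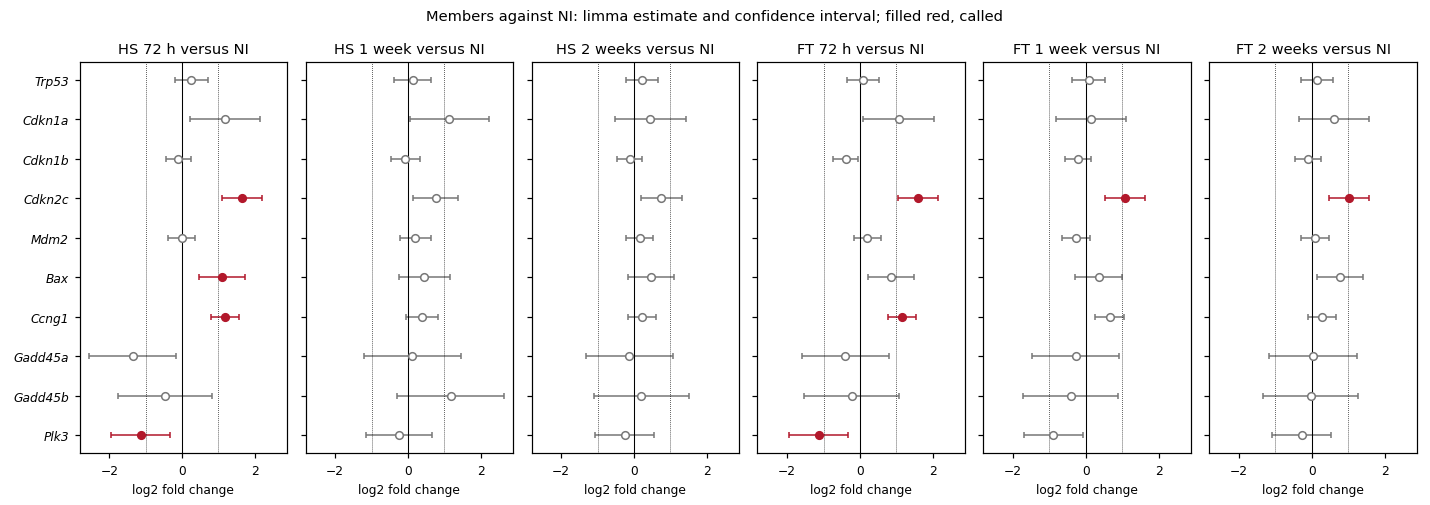
Log2 fold change against NI (horizontal axis, CPM + 0.5) of the 10 genes in the 6 injured groups, 1 panel per group. Points are limma estimates over all 20 libraries, bars the 95% interval, dotted lines a 2-fold change, and filled red points called genes. Cdkn2c is the member called in 4 of the 6 panels, while the intervals of Gadd45a and Gadd45b are wide.

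Among the CDK inhibitors, Cdkn1b, which encodes p27, the inhibitor typical of resting cells, was nearly level in the main fit. It was at 34.6, 38.7 and 35.0 CPM in NI, at 37.8, 31.4 and 32.2 CPM at HS 72 h and at 30.0, 26.0 and 26.4 CPM at FT 72 h. Only in FT 72 h did all libraries lie below NI, with a log2 fold change of -0.39 ± 0.17 (adjusted p = 0.097). In the other groups the estimates were between -0.22 and -0.07, with no interval reaching a 2-fold change. The level depends on the scaling: with all columns scaled to 1 total the log2 values were -0.60 at HS 72 h and -0.85 at FT 72 h, still under 2-fold.

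Cdkn2c (chr4:109660876-109667189, minus strand), which encodes the INK4 inhibitor p18, was called in 4 of the 6 comparisons with NI, more than any other member. It was at 4.23, 3.22 and 5.08 CPM in NI, at 15.9, 13.8 and 12.3 CPM at HS 72 h and at 11.0, 20.2 and 11.0 CPM at FT 72 h. Later it was at 7.35 and 7.34 CPM (HS 1 week), 8.73, 7.05 and 6.28 CPM (HS 2 weeks), 8.89, 7.12 and 12.5 CPM (FT 1 week) and 10.01, 6.53 and 10.5 CPM (FT 2 weeks). Every injured library of the series lay above every NI library. Counts of genes that did not overlap with NI must be read against the background: 6 of 10 members at HS 72 h (49.0% of all genes), 4 at HS 1 week (37.3%), 1 at HS 2 weeks (24.8%), 5 at FT 72 h (44.9%), 3 at FT 1 week (21.5%) and 2 at FT 2 weeks (30.7%). Cdkn2c was among them each time.

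Cdkn2c rose 3.12-fold at HS 72 h (log2 1.64 ± 0.27, adjusted p = 9.5e-05) and 3.03-fold at FT 72 h (log2 1.60 ± 0.27, adjusted p = 0.00014). These calls held under all 18 alternatives that touch each comparison. After FT it also rose at 1 week (log2 1.08 ± 0.27, adjusted p = 0.013) and 2 weeks (log2 1.01 ± 0.27, adjusted p = 0.017). Both later calls sit near the 2-fold limit and each was lost without NI replicate 2 (adjusted p = 0.097 and 0.12). The first was also lost without FT 1 week replicate 3 (adjusted p = 0.11), and the second without FT 2 weeks replicate 1 (adjusted p = 0.080) or replicate 3 (adjusted p = 0.085). After HS the log2 values of 0.77 ± 0.30 at 1 week (adjusted p = 0.23) and 0.76 ± 0.27 at 2 weeks (adjusted p = 0.12) did not pass. The difference between FT and HS was 0.32 (95% interval -0.30 to 0.93) at 1 week and 0.26 (-0.29 to 0.81) at 2 weeks, so that a call after 1 lesion and not after the other does not show that the lesions differ. Against 72 h, Cdkn2c was lower at HS 2 weeks by a log2 change of -0.89 (adjusted p = 0.035), again under 2-fold.

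The proliferation genes moved with Cdkn2c, Ccng1 and Bax at 72 h, and their part in these changes was not tested. The summed level of the 20 proliferation genes at 72 h lay above every other library (1472 to 2600 CPM against 254 to 422 CPM). Mki67, the standard marker of dividing cells, rose by a log2 fold change of 3.93 at HS 72 h and 4.20 at FT 72 h, and was at 0.59 and 0.32 at 1 week, where the test was not passed. At HS 2 weeks Mki67 was at 0.99 (adjusted p = 0.0025, under 2-fold) and 4 of the 20 proliferation genes had risen, beside 409 of all 16810 genes. At FT 2 weeks Mki67 was at 0.50 (adjusted p = 0.13) with 1 of 20 risen, beside 3.53% of all genes.

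The CDK inhibitors outside the list were looked at for the same reason. Of 5 listed, 3 were in the table, and Cdkn2a and Cdkn2b are not analysed here. At 72 h all 3 were called after both lesions, against 13.4% of all genes after HS and 12.2% after FT. Cdkn2d, the gene of the INK4 inhibitor p19, went from 12.2 ± 1.23 CPM (SD, n = 3) in NI to 60.6 ± 13.1 at HS 72 h and 46.8 ± 10.3 at FT 72 h (log2 2.24 and 1.88) and was not called later. Cdkn3, a phosphatase that acts on Cdk1 and Cdk2 and is itself made in cycling cells, went from 1.43 ± 0.289 CPM to 36.7 ± 12.7 and 31.7 ± 5.72 CPM (log2 4.21 and 4.05) and was also called at HS 2 weeks (log2 1.10). Cdkn1c, the gene of p57, fell from 7.42 ± 0.633 CPM to 2.46 ± 0.851 and 2.17 ± 0.406 CPM (log2 -1.46 and -1.58). The inhibitors thus did not move in 1 direction at 72 h.

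**Figure D3:**
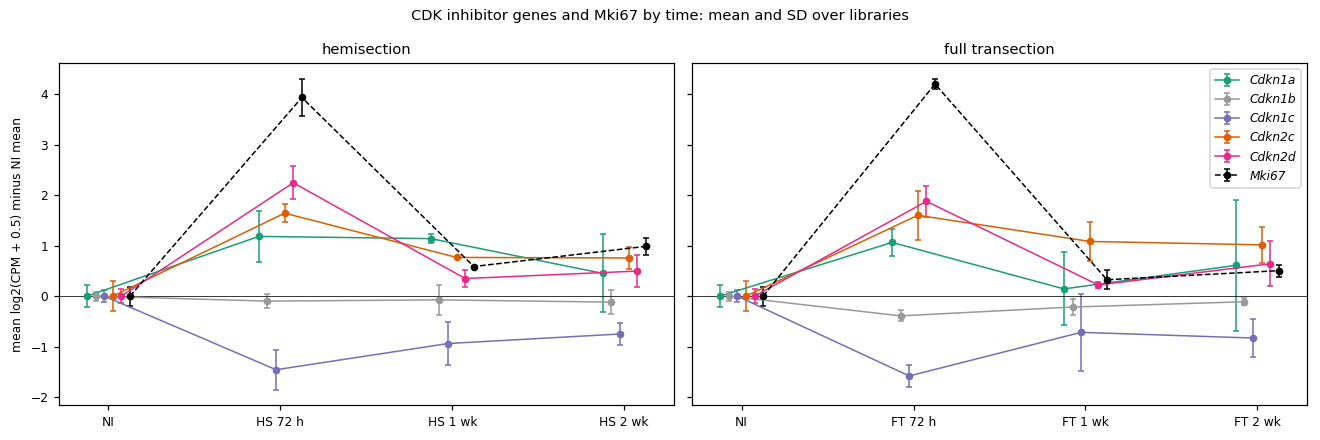
Mean log2(CPM + 0.5) minus the NI mean (vertical axis) for 5 CDK inhibitor genes and Mki67 at NI, 72 h, 1 week and 2 weeks after hemisection (left) and full transection (right). Bars are the SD over libraries. Cdkn2d and Cdkn2c peak at 72 h with Mki67, Cdkn1c is lowest there, and Cdkn1b stays near 0. The bars of Cdkn1a are wide at HS 2 weeks, FT 1 week and FT 2 weeks, and narrow at HS 1 week (2 libraries).

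Of the genes these inhibitors act through, a list of 9, the retinoblastoma family (Rb1, Rbl1, Rbl2), E2f4 and E2f5, and the MuvB subunits Lin9, Lin37, Lin52 and Lin54 that repress cell-cycle genes together with them, had 0 of 9 called in any of the 6 comparisons, with log2 values at 72 h between -0.54 and 0.59. Among 8 G1 cyclins and kinases 3 rose at 72 h after both lesions and 0 were called later. At HS 72 h 13.4% of all genes were called and 9.08% rose, and at FT 72 h 12.2% were called and 8.14% rose. Cdk4, the kinase that p18 and p19 bind, rose by a log2 fold change of 1.65 at HS 72 h and 1.36 at FT 72 h. Ccne1 and Ccne2, the cyclins E that p21 and p27 act on, rose by 2.07 and 1.91 after HS and by 2.05 and 1.50 after FT. For Cdk4 the value was still 0.62 to 0.77 at later times, under 2-fold.

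Gadd45a and Gadd45b encode small proteins that are induced by DNA damage and other stress and bind, among others, Cdk1 and a kinase upstream of p38 and JNK. Gadd45a was at 14.7, 6.05 and 6.43 CPM in NI and at 2.28, 3.02 and 3.69 CPM at HS 72 h, without overlap. The log2 fold change of -1.36 ± 0.58 did not pass the test (adjusted p = 0.085). Gadd45a was called there in 4 of 18 alternatives. Among these were edgeR's quasi-likelihood test (adjusted p = 0.043) and the fit with only the libraries of the 2 groups (adjusted p = 0.0062). At FT 72 h the libraries were at 6.12, 9.64 and 3.92 CPM, within and below the NI range. An antisense transcript, E230016M11Rik, shares 19.1% of the exonic bases of Gadd45a, and whether the libraries keep the strand is not stated, so its reads cannot be told apart there.

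Gadd45b was at 30.2, 33.8 and 34.1 CPM in NI and at 66.2 and 82.8 CPM at HS 1 week, the group with the highest mean. That difference, a log2 fold change of 1.17 ± 0.70, did not pass (adjusted p = 0.55), though the groups do not overlap. At HS 72 h Gadd45b was at 9.12, 38.1 and 36.5 CPM, at HS 2 weeks at 16.8, 51.9 and 61.1 CPM, at FT 1 week at 69.4, 14.0 and 14.4 CPM and at FT 2 weeks at 10.6, 51.9 and 58.7 CPM. In each of these groups 1 or 2 libraries stood far from the rest, and the highest library was 3.63 to 5.55 times the lowest. The SE of 0.63 for most comparisons is the largest of the 10 genes.

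Plk3 (chr4:117128655-117133963, minus strand), a Polo-like kinase induced early by stress and growth signals that phosphorylates p53, was at 61.2, 121 and 107 CPM in NI. At HS 72 h it was at 31.9, 42.9 and 53.7 CPM and at FT 72 h at 43.1, 35.6 and 47.8 CPM. All 6 libraries at 72 h were below the lowest NI library. Plk3 fell 2.19-fold at HS 72 h (log2 -1.13 ± 0.39, adjusted p = 0.036) and 2.19-fold at FT 72 h (log2 -1.13 ± 0.39, adjusted p = 0.039). Both calls are close to the threshold. That at HS 72 h was lost without NI replicate 2 (adjusted p = 0.14), NI replicate 3 (0.11), HS 72 h replicate 1 (0.15) or HS 72 h replicate 2 (0.076). That at FT 72 h was lost without NI replicate 2 (adjusted p = 0.16), NI replicate 3 (0.12), or FT 72 h replicate 1 (0.079), replicate 2 (0.11) or replicate 3 (0.056). At FT 1 week the libraries were at 102, 39.5 and 29.9 CPM, with a log2 fold change of -0.89 ± 0.39 (adjusted p = 0.21) that became -1.41 without replicate 1 and was called (adjusted p = 0.013). The Plk3 exons share 3.32% of their bases with Tctex1d4 on the other strand.

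The immediate-early genes, which cells switch on within minutes of a stimulus, stood low in several of the libraries in which these genes stood low. Their summed level was 7697, 12609 and 12652 CPM in NI, 4662, 6464 and 6765 CPM at HS 72 h and 4989, 5225 and 5772 CPM at FT 72 h. At HS 2 weeks replicate 1 was at 3172 CPM and the others at 14514 and 15497, at FT 1 week replicates 2 and 3 were at 2835 and 2315 CPM and replicate 1 at 7332, and at FT 2 weeks replicate 1 was at 1864 CPM and the others at 11655 and 11936. The libraries that stood low in this sum at FT 1 week, FT 2 weeks and HS 2 weeks are those that stood low in Gadd45a, Gadd45b, Plk3 and Cdkn1a. Within the 7 groups, the library lowest in immediate-early genes was also the lowest in Plk3 in 6 groups, in Cdkn1a in 5, in Gadd45a and Gadd45b in 4 each, in Ccng1 and Mdm2 in 3, in Cdkn1b, Cdkn2c and Bax in 2, and in Trp53 in 1. With 2 or 3 libraries in a group, a shared lowest library is frequent by chance, so these counts are no test. In NI, replicate 1 was lowest in the immediate-early sum but highest in Gadd45a (14.7 CPM, against 6.05 and 6.43). Of the 17 immediate-early genes 3 fell at HS 72 h (4.31% of all genes fell) and 2 at FT 72 h (4.09%). The median log2 fold changes were -0.95 and -1.07. At FT 1 week 2 fell (201 of all 16810 genes fell), with a median of -1.96. The heat-shock genes, 8 in all, summed to 1675 to 1804 CPM in NI, 823 to 1095 CPM at 72 h and 599 to 2082 CPM later, with the lowest values in FT 1 week replicates 2 and 3 (599 and 711 CPM) and FT 2 weeks replicate 1 (658 CPM). The part of either list in the levels of the members was not tested.

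**Figure D4:**
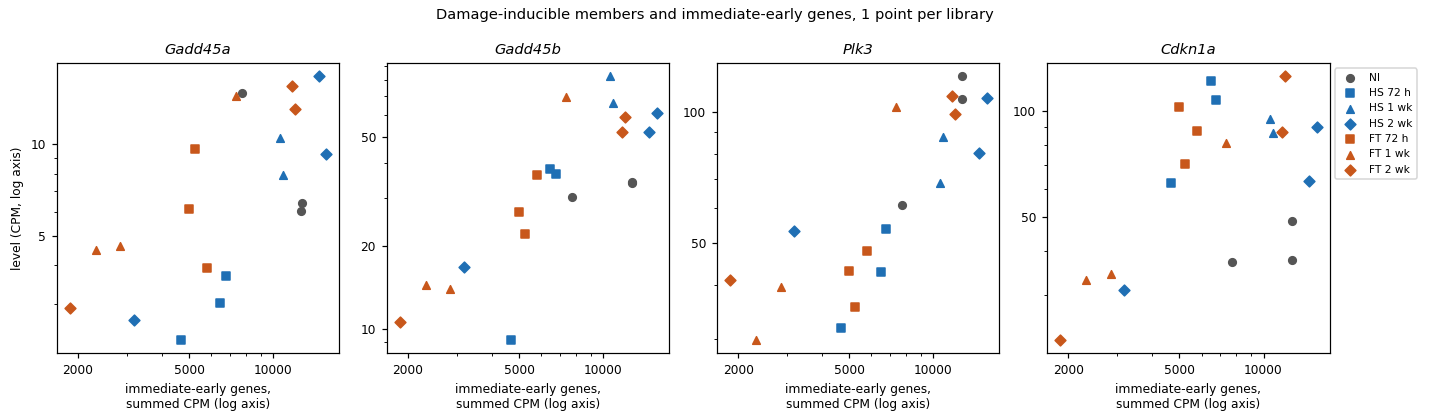
Level of Gadd45a, Gadd45b, Plk3 and Cdkn1a (vertical axis, CPM, log scale) against the summed level of 17 immediate-early genes (horizontal axis, CPM, log scale), 1 point per library, coloured by lesion and shaped by time. In Plk3 the libraries low in immediate-early genes lie low as well. In Gadd45b those lowest in immediate-early genes lie low. However, HS 72 h replicates 2 and 3 and FT 72 h replicate 3, with sums below NI, are at 38.1, 36.5 and 36.2 CPM. These values lie above the NI libraries (30.2 to 34.1 CPM). In Cdkn1a the NI libraries, at 37.2 to 48.5 CPM, lie below injured libraries with a like immediate-early sum.

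FT and HS were compared directly at each time. At 72 h, 1 week and 2 weeks 0 of 10 members were called, as were 0.00% of all genes each time. At an unadjusted p under 0.05 there were 0, 2 and 0 members, where 505, 724 and 438 of the 16810 genes were. Those 2, at 1 week, were Mdm2 (log2 -0.47, 95% interval -0.89 to -0.05) and Gadd45b (log2 -1.59, 95% interval -3.05 to -0.13). The precision differed greatly between members. At 72 h the interval for FT minus HS was -0.40 to 0.37 for Ccng1 and -0.59 to 0.51 for Cdkn2c, which leaves out a 2-fold difference, but -0.25 to 2.15 for Gadd45a and -1.09 to 0.85 for Cdkn1a, which does not.

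Between times, 0 of 10 members were called in any of the 6 comparisons within a lesion, with 6.03%, 4.74% and 0.0119% of all genes called for HS (1 week against 72 h, 2 weeks against 72 h, 2 weeks against 1 week) and 3.44%, 3.81% and 0.0714% for FT. Ccng1 and Cdkn2c, given above, were the members with an adjusted p under 0.05. Plk3 was higher at 2 weeks than at 72 h by a log2 value of 0.87 after HS (adjusted p = 0.16) and 0.85 after FT (adjusted p = 0.23), which did not pass.

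Of 27 other p53 target genes listed, 25 were in the table. At HS 72 h 2 rose and 1 fell, at FT 72 h 2 rose and 1 fell, at HS 2 weeks and FT 2 weeks 1 rose, and at HS 1 week and FT 1 week 0 were called. The 3 of 25 called at 72 h stand beside 13.4% of all genes after HS and 12.2% after FT. The median log2 fold change of these genes was -0.20 at HS 72 h and -0.13 at FT 72 h, and that of all genes was -0.11 and -0.09. Tigar, listed under its older name 9630033F20Rik, a phosphatase that lowers glycolysis, rose from 3.60 ± 0.796 CPM (SD, n = 3) in NI to 12.9 ± 2.57 at HS 72 h and 11.8 ± 3.09 at FT 72 h (log2 1.71 and 1.57), and was also called at HS 2 weeks (1.02) and FT 2 weeks (1.12). Ddb2, a DNA repair gene, fell at FT 72 h (log2 -1.49) and was at -0.69 at HS 72 h (adjusted p = 0.12). Tnfrsf10b, a death receptor gene, fell at HS 72 h (log2 -1.06) and was at -0.69 at FT 72 h (adjusted p = 0.18). The other gene that rose at 72 h, Perp, a membrane protein linked to apoptosis (log2 1.24 after HS and 1.62 after FT), is named after its values were seen, and its group means reached 2.61 CPM at most.

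Upstream of p53, 15 regulators were measured. At HS 72 h 2 rose and 1 fell (13.4% of all genes were called), at FT 72 h 1 rose (12.2% were called), and 0 were called at later times. Chek1, the checkpoint kinase of replicating cells, rose by a log2 fold change of 2.03 after HS and 2.03 after FT. Chek2, the kinase activated by double-strand breaks, rose at HS 72 h (log2 1.29) and was at 0.91 at FT 72 h (adjusted p = 0.011, under 2-fold). Sirt1, a deacetylase of p53, fell at HS 72 h (log2 -1.03) and was at -0.93 at FT 72 h (adjusted p = 0.043, under 2-fold).

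In the Bcl2 family beyond Bax, 14 genes were measured, of which 2 rose and 1 fell at 72 h after each lesion. Of all genes, 9.08% rose and 4.31% fell at HS 72 h, and 8.14% rose and 4.09% fell at FT 72 h. Bad, a promoter of apoptosis, rose (log2 1.24 after HS and 1.11 after FT), while Bmf, another, fell (log2 -1.72 and -1.21). Bcl2a1d, of a group of nearly identical copies that share reads and is therefore uncertain, was called in 5 of 6 comparisons, with its highest log2 value of 1.58 at FT 2 weeks. Bcl2l1, which encodes the protective protein Bcl-xL, was called at FT 2 weeks (log2 1.05). Among 5 relatives of Gadd45 and Plk3, the mitotic kinase Plk1 rose by log2 fold changes of 4.36 and 4.23 at 72 h and the centriole kinase Plk4 by 1.78 and 1.58, while Gadd45g fell at FT 72 h (log2 -1.75, adjusted p = 0.049). Plk3 thus fell at the times at which Plk1 and Plk4 rose.

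For the 3 members called in at least 2 comparisons with NI, the genes with the most similar pattern over the 7 group means were sought among 10680 genes, by the root mean square difference of the log2 pattern centred on its mean. For Cdkn2c these were Sord (0.0545) and Coa5 (0.0579), with a median of 0.530 over the genes searched. For Ccng1 they were Ppp2r5c (0.0656) and Taf9b (0.0720), with a median of 0.456. For Plk3 they were Mib2 (0.0795) and 4930594C11Rik (0.0894), with a median of 0.501. The smallest of so many differences lie under the median by selection, so these values are a description and no test.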

How the data were processed

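RNA of sorted eGFP-high cells from 20 mouse samples in 7 groups (injury and time from the labels) was amplified from poly(A) RNA with the SMARTer Ultra Low kit and made into Nextera libraries. The authors mapped the reads with TopHat2 2.0.9 to mm10 (GRCm38), counted them per gene with HTSeq 0.5.4p3, dropped genes that did not reach 10 reads in 2 replicates and scaled with edgeR 3.3.6. The deposited table thus holds a normalized signal, in CPM per the submitters' scaling. Whole reads were recovered for 100% of 336200 values, within 0.001 of 1 read. Strandedness is not given in the sources used here. The columns summed to 777426 to 830481 CPM for NI libraries and 878070 to 1202186 CPM for injured ones. Replicates of a group differed by more than counting noise (chi-square per gene at least 10.7).

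The test was limma 3.58.1 with trend on log2(CPM + 0.5), 1 mean per group, over all 20 samples (R 4.3.3), with Benjamini-Hochberg adjustment over 16810 genes, for 15 comparisons: each injured group with NI, FT with HS, and times within a lesion. A replicate number was not used as a block. Calls need an adjusted p under 0.05 and at least 2-fold. The unit was taken as planned, a normalized one. Alternatives were 0.1 or 1 CPM added, a filter (1 CPM in 2 samples), only the groups compared, median-of-ratios, quantile or total scaling, a replicate block, dropping the fold limit, the recovered reads in edgeR 4.0.16 or in DESeq2 1.42.0, and each sample left out. The fits were tested on simulated data.

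The members and gene lists were chosen with earlier results of these data known. Named beyond the members were up to 4 called genes of each pathway list with the largest change and a mean of at least 5 CPM in 1 group, and the 2 genes with the most similar pattern for members called in at least 2 comparisons with NI. Marker lists covered microglia, monocytes, border macrophages (652 to 687 CPM summed in NI, 372 to 1167 CPM after injury), neutrophils, lymphocytes (5.24 to 6.82 and 3.69 to 16.7 CPM), endothelium (36.9 to 49.5 and 21.1 to 55.2 CPM), erythroid cells (1 of 5 genes in the table), astrocytes (412 to 742 and 164 to 709 CPM), oligodendrocytes and neurons (40.9 to 77.4 and 13.6 to 41.0 CPM). Gene models are from GENCODE vM21 and start sites and upstream sequences from RefSeq, both GRCm38, and 10 of 10 members matched.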

Additional observations from a re-analysis of the deposited data

How the results depend on the processing

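The numbers of members called against NI were 4, 0, 0 (HS 72 h, 1 week, 2 weeks) and 3, 1, 1 (FT). With only the groups compared, HS 1 week gave 2, FT 1 week 0 and HS 1 week against 72 h 2. With quantile scaling HS 72 h gave 2, and with only the groups compared, or either edgeR test, it gave 6 (Cdkn1a and Gadd45a added). With columns scaled to 1 total FT 1 week and FT 2 weeks gave 0, and so did FT 2 weeks with 1 CPM added. Without a fold limit FT 1 week gave 2, HS 1 week against 72 h 1, HS 2 weeks against 72 h 2 and FT 2 weeks against 72 h 1. The likelihood ratio test of edgeR gave 1 for HS 2 weeks against 72 h. Leaving out 1 sample gave 2 to 4 at HS 72 h, 2 to 4 at FT 72 h, 0 to 2 at FT 1 week, 0 to 1 at FT 2 weeks and 0 to 2 for HS 2 weeks against 72 h. The cause of these moves was not tested. Scaling to 1 total shifts the median of all genes against NI to between -0.52 and -0.17. Relative to it, Cdkn2c was at 1.70, Bax at 1.12 and Plk3 at -1.11 at HS 72 h. Of 2660 member values under the 12 settings and 20 omissions, 2607 kept their side of the threshold, 26 lost a call, 27 gained one and 0 called values reversed, while 181 values called in neither fit changed sign. With the replicate block the counts were again 4, 0, 0, 3, 1 and 1. Deviations from the group means were compared between samples of different groups. With the same number the correlations were -0.58 to 0.57 (57 pairs, median 0.0018), and with different numbers -0.50 to 0.54 (114 pairs, median 0.00235). Of 20 samples 9 correlated best with their own number. Deviations within a group of 2 or 3 samples must sum to 0, so this check cannot exclude that the numbers pair the samples. With 2 or 3 samples per group, wide intervals, above all for Gadd45a and Gadd45b, limit what can be said.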
